A study of Homo sapiens with 9 samples.

Results

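The genes described here encode the nuclear lamins and a group of chromatin proteins whose loss or redistribution is used to recognise senescent cells. The set comprises 10 genes named by symbol: LMNA, LMNB1 and LMNB2, HMGB1 and HMGB2, HMGA1 and HMGA2, CBX5, SUV39H1 and EZH2. All 10 were found among the 70116 gene identifiers of the count table, and all 10 passed the filter on low counts. They were measured in 9 libraries of poly(A) RNA from U2OS, an established human osteosarcoma cell line, in 3 groups of 3. Wild-type cells received vehicle, wild-type cells received palbociclib, and cells in which PERK had been disrupted with CRISPR/Cas9 received palbociclib, with 4 days of drug. Palbociclib is an inhibitor of the G1 kinases CDK4 and CDK6, which drive entry into S phase, and PERK, the product of EIF2AK3, is a stress kinase of the endoplasmic reticulum. PERK knockout cells on vehicle were not analysed here, so the genotypes could be compared under palbociclib alone, and a difference between them in drug response was not tested. Whether the knockout line is a single clone or a pool is not given in the sources used here. The labels number the libraries of each group as sets 1, 2 and 3. Nothing states that sets were separate cultures, and the spread behind each p-value may therefore be technical.

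Lamins form the meshwork under the inner nuclear membrane. LMNA encodes the A-type lamins A and C, while LMNB1 and LMNB2 encode the farnesylated B-type lamins. Loss of lamin B1 is a widely used marker of senescence. HMGB1 and HMGB2 are HMG-box proteins that bend DNA, and HMGA1 and HMGA2 are AT-hook proteins that bind the minor groove and have been found in the heterochromatin foci of senescent cells. CBX5 encodes HP1 alpha, which reads methylated lysine 9 of histone H3, SUV39H1 writes that methylation, and EZH2 is the catalytic subunit of Polycomb repressive complex 2, which methylates lysine 27 of histone H3. Several of these genes are also transcribed mainly in cycling cells, and the promoters of such genes often carry CCAAT boxes, E2F sites or the CHR element.

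Promoter windows are shown for 4 of the genes that have one. Among those genes they stood at the ends of the range of drug responses or held the most matches to these elements. HMGB2, whose mRNA fell more than that of LMNB1, has no window. Each window runs from 250 bases before to 50 bases after an annotated start, from RefSeq on GRCh38.p14, and is written 5′ to 3′ on the strand of the gene. Capitals mark matches, on either strand, to CCAAT (read as ATTGG on the other strand) or to the E2F letters TTTGGCGC, TTTCGCGC, TTTCCCGC or TTTGCCGC.
EZH2, chr7:148884242-148884541, minus strand: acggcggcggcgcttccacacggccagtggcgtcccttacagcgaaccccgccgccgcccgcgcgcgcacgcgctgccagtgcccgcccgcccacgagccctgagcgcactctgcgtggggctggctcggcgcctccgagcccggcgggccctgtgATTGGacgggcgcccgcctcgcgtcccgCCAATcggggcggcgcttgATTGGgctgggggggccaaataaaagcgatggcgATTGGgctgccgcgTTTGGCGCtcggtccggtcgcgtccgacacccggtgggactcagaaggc
HMGB1, chr13:30465887-30466186, minus strand: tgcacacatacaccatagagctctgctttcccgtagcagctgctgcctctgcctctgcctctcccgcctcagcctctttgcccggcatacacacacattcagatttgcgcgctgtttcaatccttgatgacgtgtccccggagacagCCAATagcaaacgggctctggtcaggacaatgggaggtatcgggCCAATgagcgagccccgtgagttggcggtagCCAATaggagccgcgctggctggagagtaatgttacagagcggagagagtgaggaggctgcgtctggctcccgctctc
LMNB1, chr5:126776886-126777185, plus strand: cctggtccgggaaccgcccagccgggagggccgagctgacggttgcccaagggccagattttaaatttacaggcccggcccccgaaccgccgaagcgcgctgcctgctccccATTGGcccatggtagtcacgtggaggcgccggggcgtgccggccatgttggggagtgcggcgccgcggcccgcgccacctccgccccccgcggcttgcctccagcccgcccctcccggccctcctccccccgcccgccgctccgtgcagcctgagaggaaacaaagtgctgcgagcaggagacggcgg
LMNA, chr1:156082323-156082622, plus strand: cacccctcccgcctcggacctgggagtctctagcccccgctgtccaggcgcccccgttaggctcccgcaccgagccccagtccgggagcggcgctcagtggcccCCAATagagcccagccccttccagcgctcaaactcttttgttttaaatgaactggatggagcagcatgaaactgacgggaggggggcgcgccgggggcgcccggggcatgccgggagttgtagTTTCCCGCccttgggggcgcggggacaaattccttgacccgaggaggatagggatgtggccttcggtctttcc
The EZH2 window held 4 CCAAT matches, beginning 94, 66, 47 and 13 bases before the start, and an E2F match beginning at base 2 of the transcript. In the HMGB1 window 3 CCAAT matches began 103, 59 and 28 bases before the start. The printed LMNB1 window held 1 CCAAT match, 138 bases before the start, and none of the E2F letters. LMNA mRNA did not pass the test in any comparison with all libraries. The printed LMNA window held a CCAAT match 146 bases and an E2F match 23 bases before the start. Positions refer to the first base of the match in the printed direction. Each of the 4 genes also has windows at other annotated starts, which are not printed. Those of EZH2, LMNB1 and LMNA held no CCAAT, E2F or CHR match. For HMGB1, 1 unprinted window held a CCAAT match and a CHR match, and another held none.

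The RefSeq table gave 18 such windows for 8 of the genes. HMGB2 and HMGA2 have no entry in it. CCAAT was found in 11 of the 18 windows, which belonged to 7 genes, against 34.6% of all 35116 windows in the table. Of these windows 2 of CBX5 overlap and hold the same CCAAT match. E2F letters were found in 2 windows, those of LMNA and EZH2, against 3.31% of all windows. The CHR letters TTTGAA or TTCGAA were found in 2 windows, of LMNB2 and HMGB1, against 16.4% of all windows. The 3 motif families share no matched base in the windows printed. A match describes letters in a window and shows no binding.

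Depth was similar across the libraries, at 33674039 to 42577874 counts with 29276 to 30540 genes detected, and the 10 genes themselves had between 905 and 42729 counts per library. EIF2AK3 mRNA, the targeted transcript, was 33.1 ± 1.6 CPM (read counts scaled to the library total, mean ± SD) in vehicle, 34.8 ± 2.6 in wild-type palbociclib and 18.7 ± 0.97 in knockout palbociclib libraries. The knockout value equals 53.9% of that in drug-treated wild-type cells. Protein was not measured, and an edited transcript can still be counted. Of the mesenchymal markers COL1A1 (2470 CPM), SPARC (1730 CPM) and VIM (1040 CPM) had high means in vehicle, and RUNX2 (36.2 CPM) followed. Others were low, with 4.56 CPM for PRRX1, 2.78 for ALPL and 1.42 for COL1A2, and TWIST1 had 17 counts over all libraries. Sums over markers are scaled to the library total without TMM factors. The 9 mesenchymal markers summed to 5140 to 5550 CPM in vehicle, 7580 to 8660 in wild-type palbociclib and 7720 to 9350 in knockout palbociclib libraries. The 7 epithelial markers, none at 0, summed to 33.2 to 35.4, 32.5 to 33.5 and 20.8 to 22.5 CPM in the same order, and CLDN4 made up most of each sum (23.0, 21.1 and 13.8 CPM). In the knockout on the drug 3 of 6 tested epithelial markers were lower than in wild type, against 13.0% of all tested genes. CDH1 rose on the drug in wild-type cells, from 1.62 to 3.63 CPM (edgeR adjusted p = 4.63e-06), and stood at 2.13 CPM in the knockout, and ESRP1 rose from 0.228 to 0.513 CPM (edgeR adjusted p = 0.0314). For the 7 haematopoietic markers the sum was 0.303 to 0.705 CPM over all libraries, with 3 of 7 at 0 in each group, CD3E and HBB among them. Endothelial markers summed to 11.6 to 13.0 CPM over all libraries. The part of these differences in the results below was not tested.

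Levels below are CPM scaled by TMM library factors, given as mean ± SD over 3 libraries. Fold changes are log2 values with their SE from the edgeR quasi-likelihood test over all 9 libraries, with Benjamini-Hochberg adjustment over 19408 genes. A gene is called higher or lower at an adjusted p under 0.05.

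Per kilobase of merged exons, scaled to a common total over the table, the genes covered a wide range in vehicle-treated cells. HMGA1 stood first at 1600 ± 140, followed by HMGB2 at 517 ± 31 and LMNB1 at 425 ± 30. LMNA (275 to 337), LMNB2 (279 to 317) and HMGB1 (268 to 295) overlapped and could not be ordered on this per-length scale. CBX5 at 60.7 ± 4.3, SUV39H1 at 52.7 ± 2.7 and EZH2 at 40.4 ± 1.0 followed without overlap, and HMGA2 was lowest at 13.1 ± 1.2. On palbociclib the per-length level of LMNA in wild-type cells (290 ± 23) stood above that of LMNB1 (232 ± 26). The order depends on the length used. With the longest coding transcript in place of merged exons, LMNA in vehicle stood at 677 and above LMNB1 at 536, and EZH2 at 69.3 above SUV39H1 at 59.6.

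**Figure D1:**
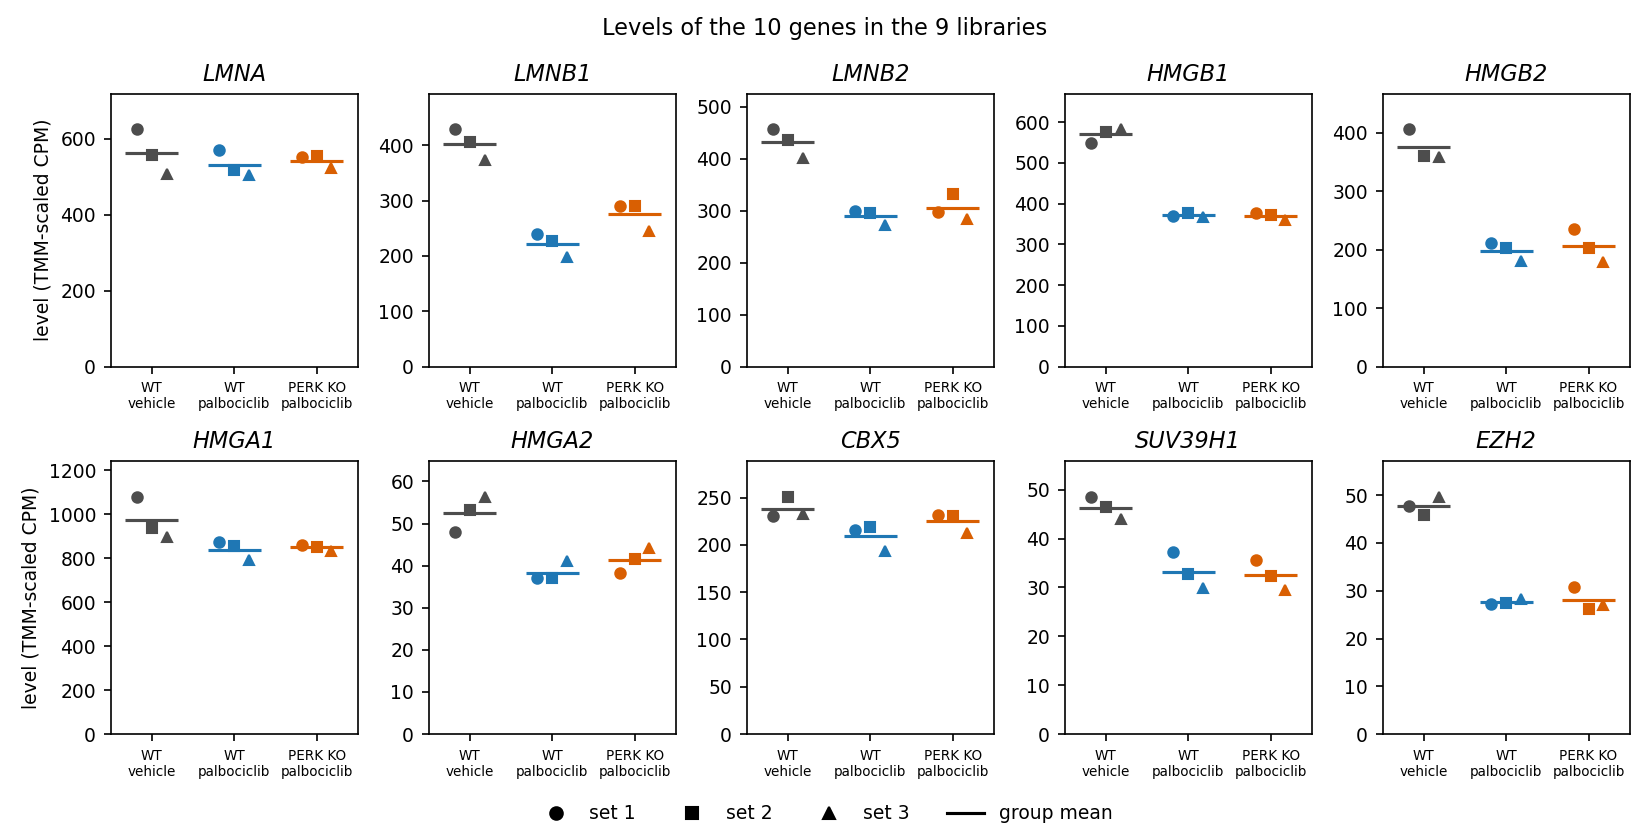
Level of each of the 10 genes in the 9 libraries, in TMM-scaled CPM on linear axes that start at 0, by group, with the symbol giving the set and the horizontal line the group mean. LMNB1 lies at 374 to 429 CPM in vehicle, 198 to 239 in wild-type palbociclib and 245 to 290 in knockout palbociclib libraries, while the groups overlap for LMNA.

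The comparison of palbociclib with vehicle in wild-type cells asks what CDK4/6 inhibition did to these mRNAs. Of the 10 genes, 9 fell, none rose and LMNA did not pass the test. The same 9 genes had drug-treated libraries that all lay under the vehicle libraries, which 26.9% of all tested genes did. Over all 19408 tested genes 43.7% were called in this comparison, 21.3% higher and 22.3% lower. The median log2 fold change of the 10 genes was -0.53, against -0.021 over all tested genes, and the values ran from -0.92 for HMGB2 to -0.09 for LMNA. DESeq2 and limma-voom also called 9 genes lower and 0 higher, as did an unadjusted p under 0.05. In bulk RNA, fewer cells expressing a gene and less RNA per cell cannot be told apart.

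The B-type lamins fell and the A-type lamin did not pass the test. LMNB1 (ENSG00000113368.12, chr5:126776623-126837020, plus strand, GRCh38) had 429, 406 and 374 CPM in vehicle sets 1 to 3, 239, 227 and 198 in wild-type palbociclib, and 290, 290 and 245 in knockout palbociclib. The highest drug-treated wild-type library lay far under the lowest vehicle library, and the knockout libraries lay between the other groups without overlapping either. In wild-type cells the drug left LMNB1 at 54.9% of the vehicle level (log2 fold change -0.87 ± 0.081, edgeR adjusted p = 1.75e-06), and 537 of the tested genes had a lower value. LMNB2 (ENSG00000176619.13, chr19:2427638-2456996, minus strand) had 457, 437 and 401 CPM in vehicle, 300, 296 and 273 in wild-type palbociclib, and 297, 333 and 284 in knockout palbociclib. Both drug-treated groups lay under all vehicle libraries and overlapped each other. The wild-type change was -0.58 ± 0.062 (edgeR adjusted p = 4.64e-07), or 67.1% of vehicle. LMNA (ENSG00000160789.24, chr1:156082573-156140089, plus strand) had 626, 558 and 508 CPM in vehicle, 570, 517 and 505 in wild-type palbociclib, and 552, 554 and 523 in knockout palbociclib. All 3 groups overlapped, and vehicle set 1 was the highest library. The LMNA difference on the drug was -0.09 ± 0.066 (edgeR adjusted p = 0.304, 95% interval -0.23 to 0.05). Without vehicle set 3 it was -0.16 and passed the test (edgeR adjusted p = 0.0398).

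Both HMG-box genes fell. HMGB2 (ENSG00000164104.12, chr4:173331695-173335125, minus strand) had 406, 360 and 359 CPM in vehicle, 211, 203 and 181 in wild-type palbociclib, and 235, 203 and 179 in knockout palbociclib. Every drug-treated library lay under every vehicle library, and the genotypes overlapped. HMGB2 had the most negative change of the 10 genes, at -0.92 ± 0.098 (edgeR adjusted p = 2.63e-05, 52.8% of vehicle), with 444 tested genes lower still. HMGB1 (ENSG00000189403.15, chr13:30456704-30617597, minus strand) had 550, 577 and 583 CPM in vehicle, 370, 377 and 368 in wild-type palbociclib, and 376, 373 and 361 in knockout palbociclib. The libraries of each HMGB1 group lay close together, with SDs of 18, 4.7 and 8.4 CPM. HMGB1 stood at 65.2% of vehicle (-0.62 ± 0.046, edgeR adjusted p = 2.4e-09).

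Both AT-hook genes fell, HMGA1 by an amount that rests on single libraries. HMGA2 (ENSG00000149948.14, chr12:65824131-65966295, plus strand), an oncofetal gene, had 48.0, 53.2 and 56.4 CPM in vehicle, 37.1, 37.0 and 41.0 in wild-type palbociclib, and 38.2, 41.7 and 44.3 in knockout palbociclib. Vehicle libraries were all above the drug-treated ones, and the genotypes overlapped. The wild-type change was -0.45 ± 0.067 (edgeR adjusted p = 1.9e-05), or 73.1% of vehicle. HMGA1 (ENSG00000137309.21, chr6:34236873-34246231, plus strand) had 1080, 938 and 897 CPM in vehicle, 873, 855 and 790 in wild-type palbociclib, and 860, 853 and 833 in knockout palbociclib. Its groups were separated only narrowly, with the lowest vehicle library just above the highest treated one. The HMGA1 change of -0.21 ± 0.061 (edgeR adjusted p = 0.008, 86.3% of vehicle) lost its call without vehicle set 1 (-0.13, adjusted p = 0.0717) or without wild-type palbociclib set 3 (-0.15, adjusted p = 0.0753).

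The histone methyltransferase genes EZH2 and SUV39H1 fell, as did the HP1 alpha gene, whose estimate was nearest to 0 among the 9 called genes. EZH2 (ENSG00000106462.12, chr7:148807383-148884321, minus strand) had 47.8, 45.8 and 49.7 CPM in vehicle, 27.3, 27.4 and 28.3 in wild-type palbociclib, and 30.7, 26.1 and 27.1 in knockout palbociclib. Both treated groups lay far under the vehicle libraries. The wild-type palbociclib libraries lay close together (SD 0.5 CPM), and the knockout libraries were more spread (SD 2.4 CPM). Palbociclib left EZH2 at 57.9% of vehicle (-0.79 ± 0.063, edgeR adjusted p = 5.92e-09). SUV39H1 (ENSG00000101945.17, chrX:48695554-48709012, plus strand) had 48.6, 46.4 and 44.1 CPM in vehicle, 37.3, 32.7 and 29.8 in wild-type palbociclib, and 35.7, 32.3 and 29.5 in knockout palbociclib. In every group set 1 was the highest library and set 3 the lowest, and the vehicle group did not overlap the treated groups. The change was -0.48 ± 0.079 (edgeR adjusted p = 0.000109), or 71.6% of vehicle. CBX5 (ENSG00000094916.16, chr12:54230940-54280133, minus strand) had 231, 251 and 233 CPM in vehicle, 216, 219 and 193 in wild-type palbociclib, and 232, 230 and 213 in knockout palbociclib. Wild-type libraries on the drug lay under the vehicle libraries, while the knockout libraries reached into the vehicle range. The CBX5 change in wild-type cells was -0.19 ± 0.055 (edgeR adjusted p = 0.00958, 87.9% of vehicle), and it lost its call without vehicle set 2 (-0.15, adjusted p = 0.0624) or without wild-type palbociclib set 3 (-0.11, adjusted p = 0.131).

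**Figure D2:**
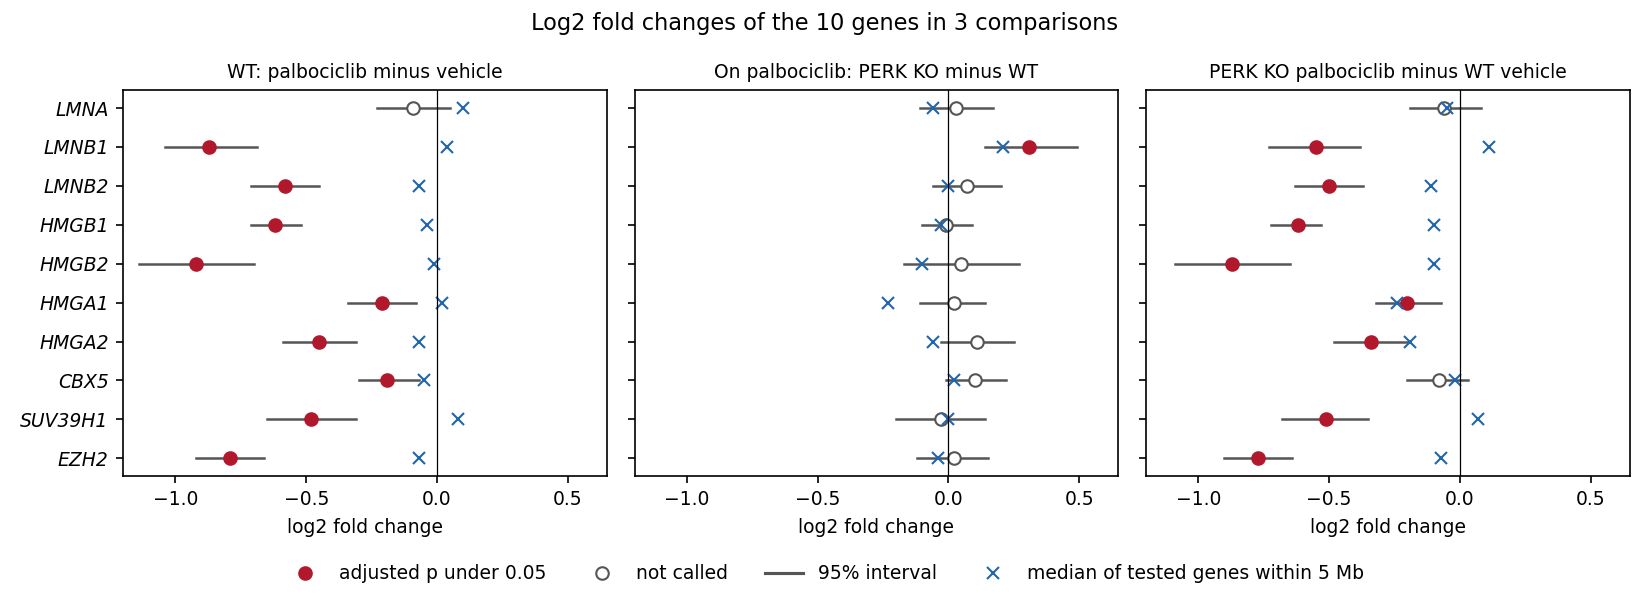
Log2 fold change of each gene in 3 comparisons, with 95% intervals; filled points passed an adjusted p under 0.05, and crosses mark the median of the other tested genes within 5 Mb. In wild-type cells on palbociclib 9 points lie below 0 and are filled, and between genotypes on the drug only LMNB1 is filled, at 0.31 beside a neighbourhood median of 0.21.

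The comparison of PERK knockout with wild-type cells, both on palbociclib, asks how the knockout line differs from wild type in the drug-treated state. The line also differs at CDKN2B and over chromosome 5, as described below, so differences cannot be assigned to loss of PERK alone. LMNB1 was the only one of the 10 genes called without the block, and it was higher in the knockout. Its level was 275 ± 26 CPM against 221 ± 21 in wild-type cells, which is 0.31 ± 0.081 higher on the log2 scale (edgeR adjusted p = 0.0108) or 124% of wild type, and the ranges did not overlap. Among all tested genes 27.9% were called between the genotypes, 14.9% higher and 13.0% lower, so 1 of 10 is below the background. The knockout was higher in each of the 3 sets, and with the set as a block the LMNB1 difference was 0.31 ± 0.038 (edgeR adjusted p = 2.19e-08). Of the 9 fits that left out a library, the one without knockout set 2 lost the call, at 0.27 with an edgeR adjusted p of 0.05003, and the other 8 kept it, with values of 0.22 to 0.39.

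The other 9 genes differed between genotypes by less than the test could call, and their 95% intervals bound the difference. The intervals ran from -0.11 to 0.17 for LMNA and from -0.06 to 0.20 for LMNB2. For HMGB1 the interval was -0.10 to 0.09, the narrowest, around an estimate of -0.01 ± 0.046 (edgeR adjusted p = 0.942). For HMGB2 it was -0.17 to 0.27, the widest, and for EZH2 -0.12 to 0.15. HMGA1 had an interval of -0.11 to 0.14, HMGA2 of -0.03 to 0.25 and SUV39H1 of -0.20 to 0.14. CBX5 was 0.10 ± 0.055 higher (edgeR adjusted p = 0.179, interval -0.01 to 0.22). With the set number as a block CBX5 passed the test at 0.10 (edgeR adjusted p = 0.0355), which brought the count of called genes to 2. The same block called 7068 of all 19408 tested genes, 3786 higher and 3282 lower, a larger share than 2 of 10. Without wild-type palbociclib set 3, and with no block, the CBX5 difference was 0.03 (edgeR adjusted p = 0.707). The median of the 10 genes was 0.04 and that of all tested genes 0.013.

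Other genes around LMNB1 were higher in the knockout as well. Of the 36 other tested genes that start within 5 Mb of LMNB1, 18 were called higher in the knockout and 1 lower, and their median log2 fold change was 0.21. LMNB1 stood 0.10 above that median, and 8 of the 36 neighbours were above LMNB1. Windows of 2.5 Mb (17 genes, 8 higher and 0 lower, median 0.23) and 10 Mb (100 genes, 47 higher and 1 lower, median 0.23) each left a difference of 0.08. Over chromosome 5 without LMNB1 the median of 858 tested genes was 0.17, against 0.01 for 17488 genes on other chromosomes. Neighbours on either side of LMNB1 that rose include ALDH7A1 (0.232, edgeR adjusted p = 0.00123), an aldehyde dehydrogenase, and ISOC1 (0.231, edgeR adjusted p = 0.0084), named here after their values were seen. DNA copy number was not measured, and its part in the LMNB1 difference was not tested. In the drug comparison within wild-type cells the LMNB1 neighbourhood median was 0.04, and LMNB1 lay 0.91 below it.

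**Figure D3:**
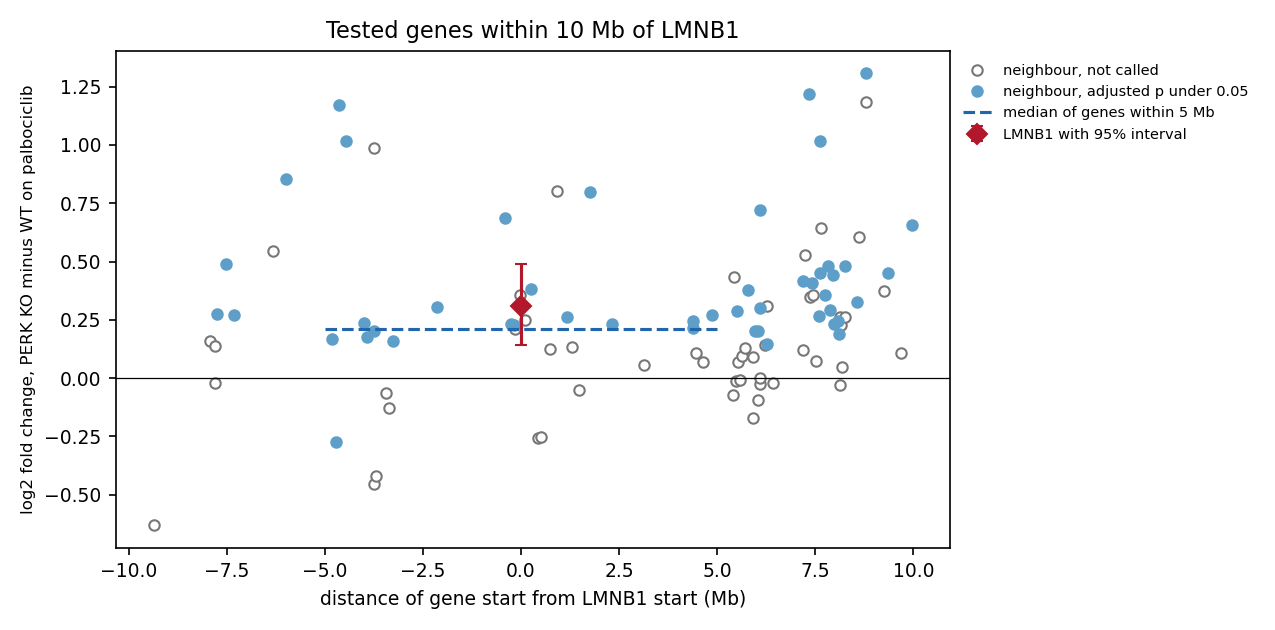
Log2 fold change between PERK knockout and wild-type cells on palbociclib for tested genes within 10 Mb of LMNB1, by distance of their start from that of LMNB1 in Mb; filled circles passed an adjusted p under 0.05 and the dashed line is the median within 5 Mb. LMNB1, drawn with its 95% interval, lies at 0.31 and the local median at 0.21, with 18 of 36 neighbours within 5 Mb called higher.

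For HMGA1 the neighbourhood pointed the other way. The 80 other tested genes within 5 Mb had a median of -0.23 between genotypes on the drug, while HMGA1 itself was at 0.02 ± 0.061 (edgeR adjusted p = 0.885), which left it 0.25 above its surroundings. The neighbourhood medians of the remaining 8 genes lay between -0.10, for HMGB2, and 0.02, for CBX5.

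Knockout cells on palbociclib were also set beside wild-type cells on vehicle. This comparison shares the vehicle libraries with the first and the knockout libraries with the second, so it adds no independent support, and its values are given side by side. Of the 10 genes 8 fell and 0 rose, by edgeR as well as by DESeq2, limma-voom and an unadjusted p under 0.05. Over all tested genes 51.7% were called, 25.7% higher and 26.0% lower. LMNB1 stood at 68.2% of the vehicle level (-0.55 ± 0.081, edgeR adjusted p = 6.4e-05), beside 54.9% in wild-type cells on the drug. Relative to its local median of 0.11 LMNB1 was at -0.66, beside -0.91 in wild-type cells. On the same scale LMNB2 was at -0.39 and HMGB1 at -0.52, beside -0.5 and -0.58. HMGB2 stood at 54.8%, EZH2 at 58.6%, HMGB1 at 64.9%, SUV39H1 at 70.0% and LMNB2 at 70.5% of vehicle, beside 52.8%, 57.9%, 65.2%, 71.6% and 67.1% in wild-type cells. HMGA2 stood at 78.8%, and its change of -0.34 became -0.16 relative to its local median. HMGA1 stood at 87.2%. HMGA1 lost its call without vehicle set 1 (-0.12, adjusted p = 0.0982), and its change of -0.20 became 0.05 once the local median of -0.24 was subtracted. LMNA (-0.06 ± 0.066, edgeR adjusted p = 0.511) and CBX5 (-0.08 ± 0.055, edgeR adjusted p = 0.222) did not pass.

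Ratios within a library compare the lamins without any scaling between libraries. The ratio of LMNA to LMNB1, each per kilobase of merged exons, was 0.759, 0.715 and 0.706 in vehicle, 1.24, 1.19 and 1.33 in wild-type palbociclib, and 0.991, 0.993 and 1.11 in knockout palbociclib libraries. The 3 groups did not overlap, with the knockout between the others. The ratio was 1.72-fold higher on the drug in wild-type cells, and in the knockout 0.824 of the wild-type value. With 3 libraries against 3, the exact two-sided permutation test gave p = 0.1 for each, the smallest value this design allows. LMNA per LMNB2 was 1.01 ± 0.045 in vehicle, 1.43 ± 0.061 in wild-type palbociclib and 1.39 ± 0.084 in knockout palbociclib libraries, and the treated groups overlapped. LMNB1 per LMNB2 was 1.4 ± 0.0075, 1.14 ± 0.054 and 1.35 ± 0.094 in the same order. The wild-type palbociclib group lay apart from both others, and the vehicle and knockout groups overlapped. On the log2 scale the knockout differed from wild type on the drug by -0.28 for LMNA per LMNB1 and 0.24 for LMNB1 per LMNB2. Local medians of genes within 5 Mb in that comparison were 0.21 for LMNB1, -0.06 for LMNA and 0.0 for LMNB2. The ratios are not adjusted for these local shifts, and their part in the genotype differences was not tested.

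**Figure D4:**
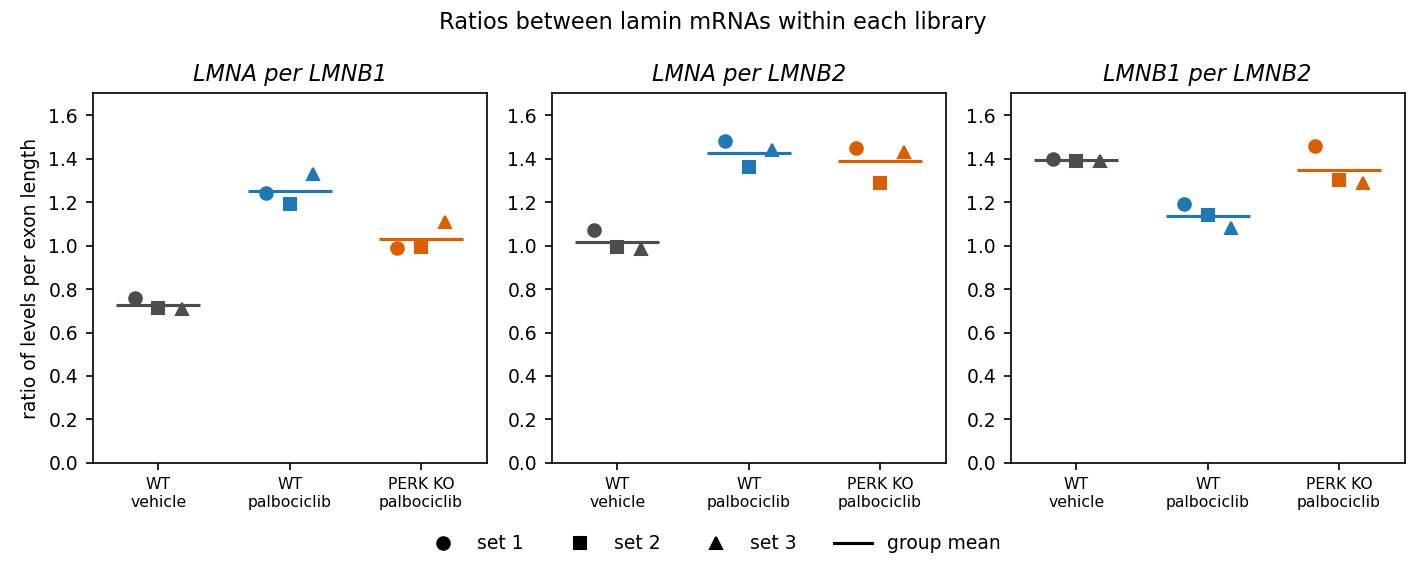
Ratios between lamin mRNAs in each library, from levels per kilobase of merged exons, by group on a linear axis that starts at 0, with the set as symbol and the group mean as a line. LMNA per LMNB1 moves from 0.727 in vehicle to 1.25 in wild-type palbociclib and 1.03 in knockout palbociclib libraries, with no overlap. The ratios are not adjusted for shifts of neighbouring genes between the genotypes.

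Among the chromatin genes HMGB1 per HMGB2 was 0.549 ± 0.055 in vehicle, 0.676 ± 0.053 in wild-type palbociclib and 0.654 ± 0.075 in knockout palbociclib libraries. The vehicle and wild-type drug groups did not overlap (exact two-sided permutation p = 0.1), and the drug-treated groups did. HMGA1 per HMGA2 was 124 ± 23, 145 ± 16 and 136 ± 12, and all of its groups overlapped. The test was made for 5 ratios in 3 comparisons, and none of these p-values can pass 0.05.

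Libraries with the same set number deviated together, and the 10 genes took part in this. In the model with the set as a block, 7 of the 10 genes differed between sets, against 8.07% of all tested genes (1567 of 19408). LMNB1 (edgeR adjusted p = 9.65e-05) and HMGB2 (edgeR adjusted p = 0.000137) differed most clearly, and HMGB1, CBX5 and EZH2 did not pass. In all 3 groups set 3 was the lowest for LMNA, LMNB1, LMNB2, HMGB2, HMGA1 and SUV39H1. HMGA2 was highest in set 3 in all 3 groups. What distinguishes the sets is not given in the sources used here. The deviation of set 3 from its group mean was -0.14 on the log2 scale for LMNB1 and 0.10 for HMGA2, which is smaller than the drug effect on either gene. For LMNA that deviation was -0.09, as large as its drug difference of -0.09.

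The drug effect on the 10 genes was read beside 10 lists of related genes, chosen by function with earlier results of these data known. For scale, 22.3% of all tested genes were lower and 21.3% higher on the drug in wild-type cells. Between genotypes on the drug 14.9% were higher and 13.0% lower. The plainest list was proliferation, with markers of DNA replication and mitosis: 12 of 12 fell and 0 rose in wild-type cells on the drug, by edgeR, DESeq2, limma-voom and an unadjusted p under 0.05, with a median of -0.76. CCNA2 (cyclin A2) fell from 236 ± 11 to 131 ± 13 CPM (-0.86 ± 0.086, edgeR adjusted p = 6.24e-06). AURKB, the mitotic kinase, fell by 0.82 on the log2 scale (edgeR adjusted p = 4.39e-06). Between genotypes on the drug 4 of the 12 were higher and 1 lower: MKI67, the Ki-67 gene, was 0.34 ± 0.082 higher in the knockout (537 ± 46 against 425 ± 38 CPM, edgeR adjusted p = 0.00735), and PCNA, the replication clamp, was 0.35 lower (134 ± 11 against 170 ± 9.8 CPM, edgeR adjusted p = 0.000239). Knockout cells on the drug had 12 of 12 lower than vehicle, with a median of -0.60. The part of cell-cycle composition in the changes of the 10 genes was not tested.

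Partners of the lamins at the nuclear envelope were mixed. Of 21 tested genes 9 fell and 5 rose on the drug in wild-type cells, with a median of -0.14. The shares over all tested genes were 22.3% lower and 21.3% higher. On the drug 8 of the 21 were lower and 2 higher in the knockout, against 13.0% and 14.9% of all tested genes. TMPO, which encodes the lamina-associated LAP2 proteins, fell from 253 ± 5.6 to 146 ± 12 CPM (-0.79 ± 0.06, edgeR adjusted p = 4.86e-09). The lamin B receptor gene LBR fell by 0.54 (edgeR adjusted p = 5.5e-08) and was a further 0.17 lower in the knockout (edgeR adjusted p = 0.018). SYNE1, a nesprin of the outer nuclear membrane, rose from 83.6 ± 18 to 165 ± 17 CPM (0.98 ± 0.17, edgeR adjusted p = 0.00284). SUN1, which links nesprins to the lamina, fell by 0.31 on the drug (edgeR adjusted p = 1.19e-05) and was 0.39 ± 0.044 higher in the knockout (283 ± 4.6 against 216 ± 4.0 CPM, edgeR adjusted p = 1.01e-06). SYNE3 moved down in both comparisons, from 6.8 to 4.18 to 2.33 CPM (edgeR adjusted p = 4.92e-05 and 4.32e-05). Emerin (EMD) was at -0.03 on the drug and 0.21 higher in the knockout (edgeR adjusted p = 0.0016). Genes of lamin processing changed in 4 of 8 cases on the drug, near the 43.7% of all tested genes called. Of the 8, edgeR called 1 up and 3 down and DESeq2 1 up and 2 down, with a median of -0.12. They include FNTB, the beta subunit of farnesyltransferase (-0.32 ± 0.068, edgeR adjusted p = 0.000637), and PPP1CC, a protein phosphatase catalytic subunit (-0.30 ± 0.05, edgeR adjusted p = 6e-05), which was another 0.46 lower in the knockout (edgeR adjusted p = 7.83e-07). NARF, a prelamin A binding protein, rose by 0.45 (edgeR adjusted p = 0.000385).

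Most relatives of the HMG genes fell. Of 12 tested genes with an HMG box or of the HMGN family 8 fell and 1 rose on the drug, with a median of -0.33. SSRP1, a subunit of the histone chaperone FACT, fell by 0.68 (513 ± 23 to 320 ± 16 CPM, edgeR adjusted p = 5.62e-09), HMGN2 by 0.62 (edgeR adjusted p = 3.48e-09) and HMGB3 by 0.43 (edgeR adjusted p = 4.08e-06). Between genotypes 0 of the 12 were called by edgeR or DESeq2 and 1 by limma-voom. At an unadjusted p under 0.05, 5 were higher and 1 lower, and the same counts, 5 and 1, passed with the set as a block. Over all 19408 tested genes that block called 3786 higher and 3282 lower. HMGN4 was listed at 0 in all libraries, and how reads that map to several places were counted is not stated, so such a 0 does not show absence of the mRNA.

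The list for histone H3 lysine 9 methylation holds readers, writers, associated repressors and the KDM4 demethylases. On the drug 7 of its 16 tested genes were lower and 3 higher, with a median of -0.07. The shares over all tested genes were 22.3% lower and 21.3% higher. The paralogs of CBX5 fell, CBX3 (HP1 gamma) by 0.39 (edgeR adjusted p = 3.78e-06) and CBX1 (HP1 beta) by 0.18 (edgeR adjusted p = 0.0153), and both were higher in the knockout, by 0.24 (edgeR adjusted p = 0.00126) and 0.23 (edgeR adjusted p = 0.00542). TRIM28, the KAP1 corepressor, had the same pattern (-0.39, edgeR adjusted p = 7.93e-06, then 0.30, edgeR adjusted p = 0.000254). SUV39H2, the paralog of SUV39H1, fell by 0.29 (edgeR adjusted p = 0.000269) and was a further 0.24 lower in the knockout (edgeR adjusted p = 0.0029). The demethylase genes KDM4B (0.71 ± 0.1, edgeR adjusted p = 0.000115) and KDM4A (0.46 ± 0.051, edgeR adjusted p = 5.61e-07) rose on the drug. MORC2 was at -0.01 on the drug in wild-type cells and 0.28 lower in the knockout on the drug (edgeR adjusted p = 0.00102). EHMT2 was listed at 0 in all libraries, with the same limit as for HMGN4. Among histone chaperones 5 of 8 fell and 1 rose, CHAF1B by 0.66 (edgeR adjusted p = 1.57e-07) and CHAF1A by 0.65 (edgeR adjusted p = 1.91e-08), both subunits of the replication-coupled CAF-1. In the knockout CHAF1A was 0.20 higher (edgeR adjusted p = 0.0106) and ASF1A 0.19 lower (edgeR adjusted p = 0.0295). With the set as a block 4 chaperone genes were higher and 2 lower, beside 3786 higher and 3282 lower of all 19408 tested genes.

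The list for histone H3 lysine 27 methylation holds subunits of Polycomb repressive complex 2, EZH1 and the demethylases KDM6A and KDM6B. Of its 11 tested genes 7 fell on the drug, all of them subunits of the complex, and 1 rose, KDM6B (0.47, edgeR adjusted p = 8.19e-05), with a median of -0.23. PHF19 fell by 0.68 (117 ± 15 to 72.7 ± 7.8 CPM, edgeR adjusted p = 0.00161), and the core subunits EED by 0.52 (edgeR adjusted p = 3.42e-06) and SUZ12 by 0.50 (edgeR adjusted p = 5.4e-07). The alternative catalytic subunit EZH1 was at -0.09 on the drug (edgeR adjusted p = 0.398) and 0.30 ± 0.083 higher in the knockout (edgeR adjusted p = 0.00942). AEBP2 fell by 0.23 (edgeR adjusted p = 0.00121) and was 0.30 higher in the knockout (edgeR adjusted p = 0.000162). There 4 genes of the list were higher and 2 lower, against 14.9% and 13.0% of all tested genes. For Polycomb repressive complex 1, 8 of 14 fell and 1 rose, with a median of -0.19. CBX2 fell by 0.53 (edgeR adjusted p = 1.89e-07) and was 0.35 higher in the knockout (edgeR adjusted p = 6.21e-05), and PHC2 ran the other way, at 0.39 (edgeR adjusted p = 4.31e-05) and -0.34 (edgeR adjusted p = 0.000273). PCGF6 fell by 0.48 (edgeR adjusted p = 2.61e-05). DNA methylation genes had a median of -0.51, near that of the 10 genes, with 5 of 9 lower and 1 higher. DNMT3B fell by 0.88 (edgeR adjusted p = 8.59e-09) and was 0.32 lower still in the knockout (edgeR adjusted p = 0.00294), DNMT1 fell by 0.78 (edgeR adjusted p = 8.17e-09), and HELLS fell by 0.66 (edgeR adjusted p = 2.08e-07) and was 0.35 higher in the knockout (edgeR adjusted p = 0.00074).

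**Figure D5:**
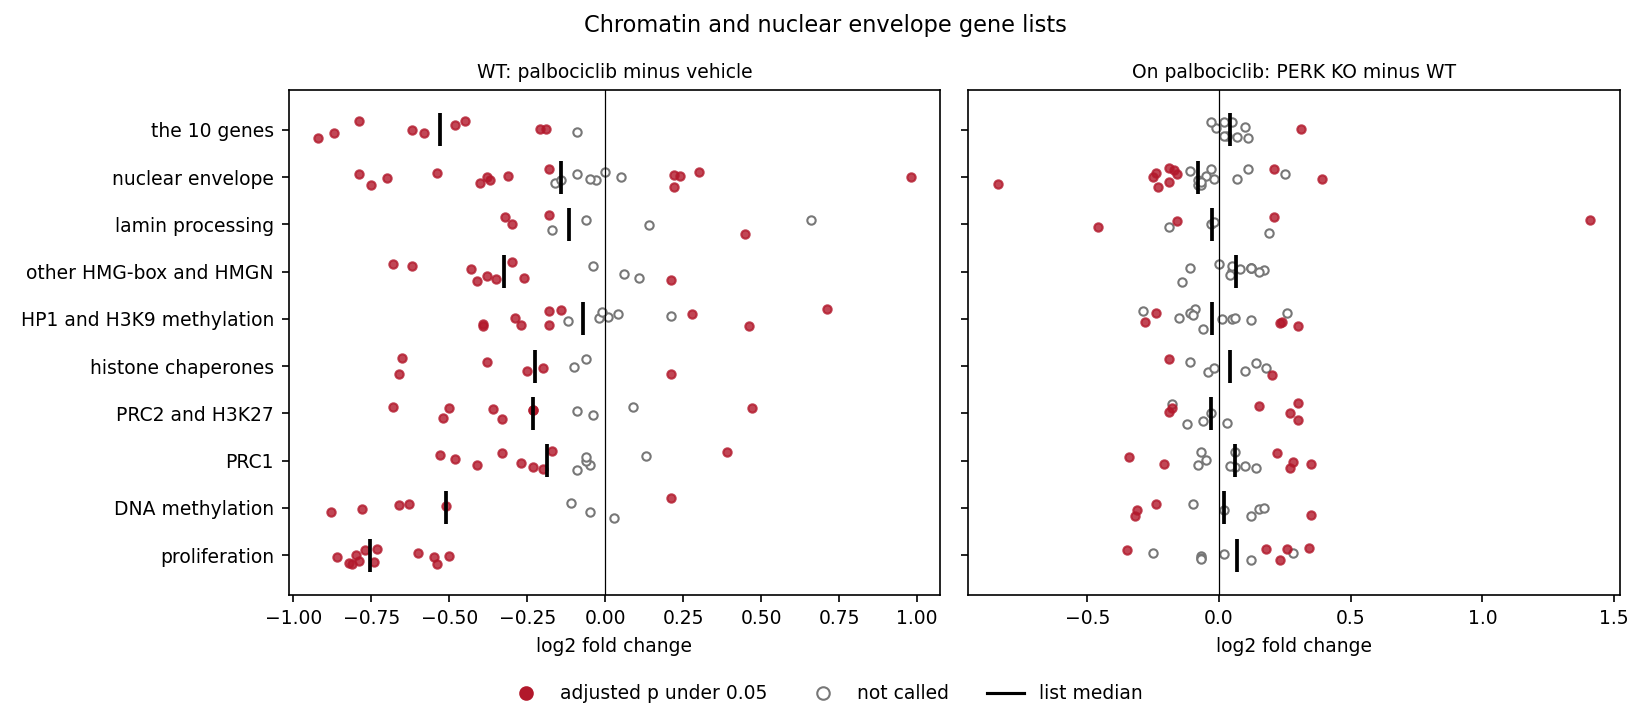
Log2 fold change of each tested gene by list, for palbociclib against vehicle in wild-type cells and for knockout against wild type on palbociclib; filled points passed an adjusted p under 0.05 and vertical bars are list medians. The median of the 10 genes is -0.53 in the drug comparison, between -0.51 for DNA methylation and -0.76 for proliferation genes, and 0.04 between genotypes.

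Other markers used for senescence were measured in the same libraries. Of 7 tested genes 4 rose and 1 fell on the drug in wild-type cells, with a median of 0.28. The shares over all tested genes were 21.3% higher and 22.3% lower. GLB1, the lysosomal beta-galactosidase, rose from 62.2 ± 1.7 to 89.6 ± 3.5 CPM (0.53 ± 0.05, edgeR adjusted p = 5.41e-08). CDKN1A (p21) rose by 0.28 (edgeR adjusted p = 0.000316) and was another 0.33 higher in the knockout (edgeR adjusted p = 0.000104), and GLB1 another 0.18 (edgeR adjusted p = 0.00869). CDKN2B had 194, 363 and 251 counts in vehicle, 196, 280 and 352 in wild-type palbociclib, and 2, 0 and 1 in knockout palbociclib libraries, so the knockout libraries differ from wild type at this gene as well as at EIF2AK3. CDKN2A (p16) had 3 counts over all 9 libraries and was not tested.

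Transcripts beside or derived from the 10 genes were counted separately. LMNB1-DT, a noncoding transcript divergent from LMNB1, had 11, 13 and 13 counts in vehicle, 2, 7 and 4 in wild-type palbociclib and 5, 4 and 9 in knockout palbociclib libraries, and fell by 1.39 ± 0.48 on the drug (edgeR adjusted p = 0.0246) on these few counts. RPSAP52, which overlaps HMGA2 on the opposite strand, had 73, 77 and 89 counts in vehicle, 27, 34 and 46 in wild-type palbociclib and 49, 33 and 54 in knockout palbociclib libraries (-1.06 ± 0.21 on the drug, edgeR adjusted p = 0.000395). No source used here gives the strand setting of the counting, and reads of HMGA2 and RPSAP52 may not be told apart. HMGB1 has 48 pseudogenes by symbol in the table, 25 with counts, whose 4883 counts equal 3.24% of those of HMGB1. Of these, HMGB1P6 (-0.78 ± 0.098, edgeR adjusted p = 2.55e-06) and HMGB1P5 (-0.55 ± 0.14, edgeR adjusted p = 0.00394) fell on the drug, and such reads cannot be separated with certainty from those of the parent gene. The 8 HMGA1 pseudogenes held 0.178% of the HMGA1 counts. Adding pseudogene reads changed no call among the 10 genes.

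The genes whose levels ran most like each of the 10 over the 9 libraries were found by Pearson's r of log2 CPM among 10815 other genes with a mean of at least 5 CPM. The libraries share 3 groups and 3 sets, so r mostly reflects those and is a description only. LMNB1 ran closest to FOXM1 (r = 0.996), a transcription factor of G2 and mitosis, then LIG1 (DNA ligase 1, r = 0.994) and KPNB1 (importin beta, r = 0.993). HMGB2 ran closest to the pseudogene CDC20P1 and the citron kinase gene CIT (r = 0.997 each), then to KIF11, a mitotic kinesin gene (r = 0.995). SUV39H1 ran closest to KNSTRN (r = 0.989), KIF4A and CKAP2L (r = 0.988 each), which encode spindle and chromosome proteins of mitosis. EZH2 ran closest to ILKAP (r = 0.996), and EXOSC3 (r = 0.992) was also among its nearest genes. For HMGB1 the nearest were IPO5 (r = 0.997), CDKN1B (r = 0.996) and NUDT21 (r = 0.995), and for LMNB2 STIP1 (r = 0.996) and HNRNPUL1 (r = 0.993). The genes with small drug changes had looser matches: MDH2 for LMNA (r = 0.971), POLG for HMGA1 (r = 0.972) and GNAZ for CBX5 (r = 0.975). HMGA2 ran closest to MIR1244-2 (r = 0.993), RNF130 (r = 0.978) and MBOAT1 (r = 0.967).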

How the data were processed

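Messenger RNA of U2OS cells was sequenced in 9 libraries, 3 per group. The authors deposited raw read counts per gene as whole numbers, without normalization. The submitters' processing notes name STAR 2.7.9a, Trim Galore, FastQC, DESeq2 and CASAVA, and the hg38 build. No counter or strand setting is given in the sources used here. Of 70116 gene identifiers 62700 had a symbol, and 58261 took a position from GENCODE release 29 on GRCh38.

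Counts were tested with the edgeR 4.0.16 quasi-likelihood F test (robust, TMM factors 0.977 to 1.01, default low-count filter, R 4.3.3, limma 3.58.1) in 1 model of 3 groups over all 9 libraries, with 6 residual degrees of freedom, and Benjamini-Hochberg adjustment over the 19408 genes kept, which held 99.91% of counts. The biological coefficient of variation was 5.99%. The script was tested on simulated data. Tables and figures used Python 3.11.15 and matplotlib 3.10.9. CPM are TMM-scaled. Alternatives were DESeq2 1.42.0, limma-voom, other factors and filters, the set as a block, 6 libraries only, each library left out, pseudogene reads added and local medians subtracted.

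The 10 genes and all lists were chosen with earlier results of these data known. Named genes are the 10, EIF2AK3, their paralogs and pseudogenes, the 3 nearest patterns, and per list up to 2 called genes with the largest change (mean at least 1 CPM) in each of the first 2 comparisons. Also named, chosen after their values were seen, are LBR, EMD, SUZ12, KDM6B, single cell type markers, CBX1, CBX3, SUV39H2, HMGB3, the transcripts beside LMNB1 and HMGA2, and genes with few or no counts. Some genes the rule would name are not reported here. Over 12932 genes, deviations from group means correlated at 0.18 to 0.54 in the 9 pairs of libraries with the same set number and at -0.4 to 0.071 in the 18 other pairs, so the numbers were taken to pair the libraries, from these correlations and no label.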

Additional observations from a re-analysis of the deposited data

How the results depend on the processing

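The count of the 10 genes called in wild-type cells on palbociclib was 9 under DESeq2, limma-voom, RLE and upper-quartile factors, no filter, a minimum of 5 CPM in 3 libraries, 6 libraries only and the replicate block, and 7 to 10 with a library left out. Between genotypes on the drug it was 1, except 2 with the replicate block (LMNB1 and CBX5) and 0 to 1 with a library left out, 0 without knockout set 2. Over all 19408 tested genes the replicate block called 7068 between genotypes. For knockout on drug against vehicle the count of the 10 genes was 8, and 7 to 8 with a library left out. The block changed no other call of the 10 genes. All counts over all genes stayed within 1.5 times.

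Estimates near 0 changed sign between genotypes. With a library left out LMNA ran from -0.02 (wild-type palbociclib set 3) to 0.09, HMGA1 from -0.04 (the same library) to 0.04, HMGB1 from -0.03 to 0.01 (knockout set 3), HMGB2 from -0.05 (knockout set 1) to 0.14 with -0.03 without wild-type palbociclib set 3, EZH2 from -0.05 (knockout set 1) to 0.06, and SUV39H1 from -0.12 to 0.06 (wild-type palbociclib set 1) with 0.03 without knockout set 3. HMGB1 was 0.00 without wild-type palbociclib set 2 or with upper-quartile factors. Against vehicle, knockout LMNA ran from -0.13 to 0.02 (vehicle set 1), and HMGA1 turned to 0.05 after subtraction of its local median. The cause was not tested. The windows of 2.5 and 10 Mb and the longest transcript length were chosen after seeing the data. The intervals given come from the model without the block, whose SEs are larger for each of the 10 genes than with it.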
